A study of Homo sapiens with 24 samples.

Results

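Ribosome assembly factors of the nucleolus were examined in precursor B cell leukemia cells exposed to the BET bromodomain inhibitor JQ1. The list held 54 genes, from the small nucleolar ribonucleoproteins that modify ribosomal RNA to the factors that mature each ribosomal subunit. A gene was taken from the core array summary where the platform annotation gave it as the only symbol of a transcript cluster, which is the array's unit for a gene. Where several such clusters existed, that with the highest mean level across the 12 core arrays was used. This rule found 43 of the 54 among 14232 genes. The genes fell into 7 assembly steps, with 1 gene of the box C/D particles, 2 of the box H/ACA particles, 16 of the small subunit processome, 4 of late 40S maturation, 11 of early pre-60S assembly, 6 of later pre-60S maturation and 3 organisers or chaperones of the nucleolus.

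RNA was measured on Affymetrix exon arrays in MHH-CALL4 and MUTZ-5, both established lines of human precursor B cell acute lymphoblastic leukemia. Cells of each line were cultured with DMSO, the solvent, or with 500 nM JQ1, a small molecule that displaces BET proteins from acetylated chromatin, for 8 hours. Each of the 4 groups had 3 samples and 1 array per sample, and values are log2 intensities. Whether the samples of a group were grown as separate cultures is not stated in the labels, so the p-values describe only how far these samples spread, and that spread may be technical.

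Ribosomes are built in the nucleolus, where RNA polymerase I makes a long precursor of ribosomal RNA. Box C/D particles methylate this precursor, box H/ACA particles convert uridines to pseudouridine, and the small subunit processome folds and cuts the part that becomes the 40S subunit. Other factors build the 60S subunit in parallel, and many genes of this machinery are known as targets of the transcription factor MYC in B cells.

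Most of the factors fell under JQ1 in both lines, among them UTP20 of the small subunit processome, RRS1 of early pre-60S assembly and EXOSC5 of the RNA exosome. GAR1 and NOP10 of the box H/ACA particles were not called in either line taken alone, and GAR1 was called lower in the mean effect of both lines. The list was chosen with earlier results of these data known, so the counts describe it and are no independent test. In MHH-CALL4, 39 of 43 fell (limma, Benjamini-Hochberg adjusted p under 0.05), where 17.5% of all genes tested were called lower. In MUTZ-5, 36 of 43 fell, where 13.0% of all genes were called lower. The 36 were also called in MHH-CALL4, and 10.6% of all genes were called lower in both lines. In the mean effect of both lines 41 factors were called lower, where 20.9% of all genes were. The median difference between JQ1 and DMSO over the 43 genes was -0.82 log2 units in MHH-CALL4 and -0.70 in MUTZ-5, and the median over all genes was 0.01 in each line. Over all genes 61.5% of the calls in MHH-CALL4 and 58.9% in MUTZ-5 were decreases, and 51.5% and 48.5% after each array was centred on its median, where 39 and 35 factors fell. No factor was called higher in either line, where 11.0% and 9.06% of all genes were, and none was higher at an unadjusted p under 0.05. A fall of at least 2-fold was called for 15 factors in MHH-CALL4 (1.59% of all genes) and for 8 in MUTZ-5 (1.22% of all genes). Arrays of whole cultures cannot tell fewer cells of a type apart from less RNA per cell.

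**Figure D1:**
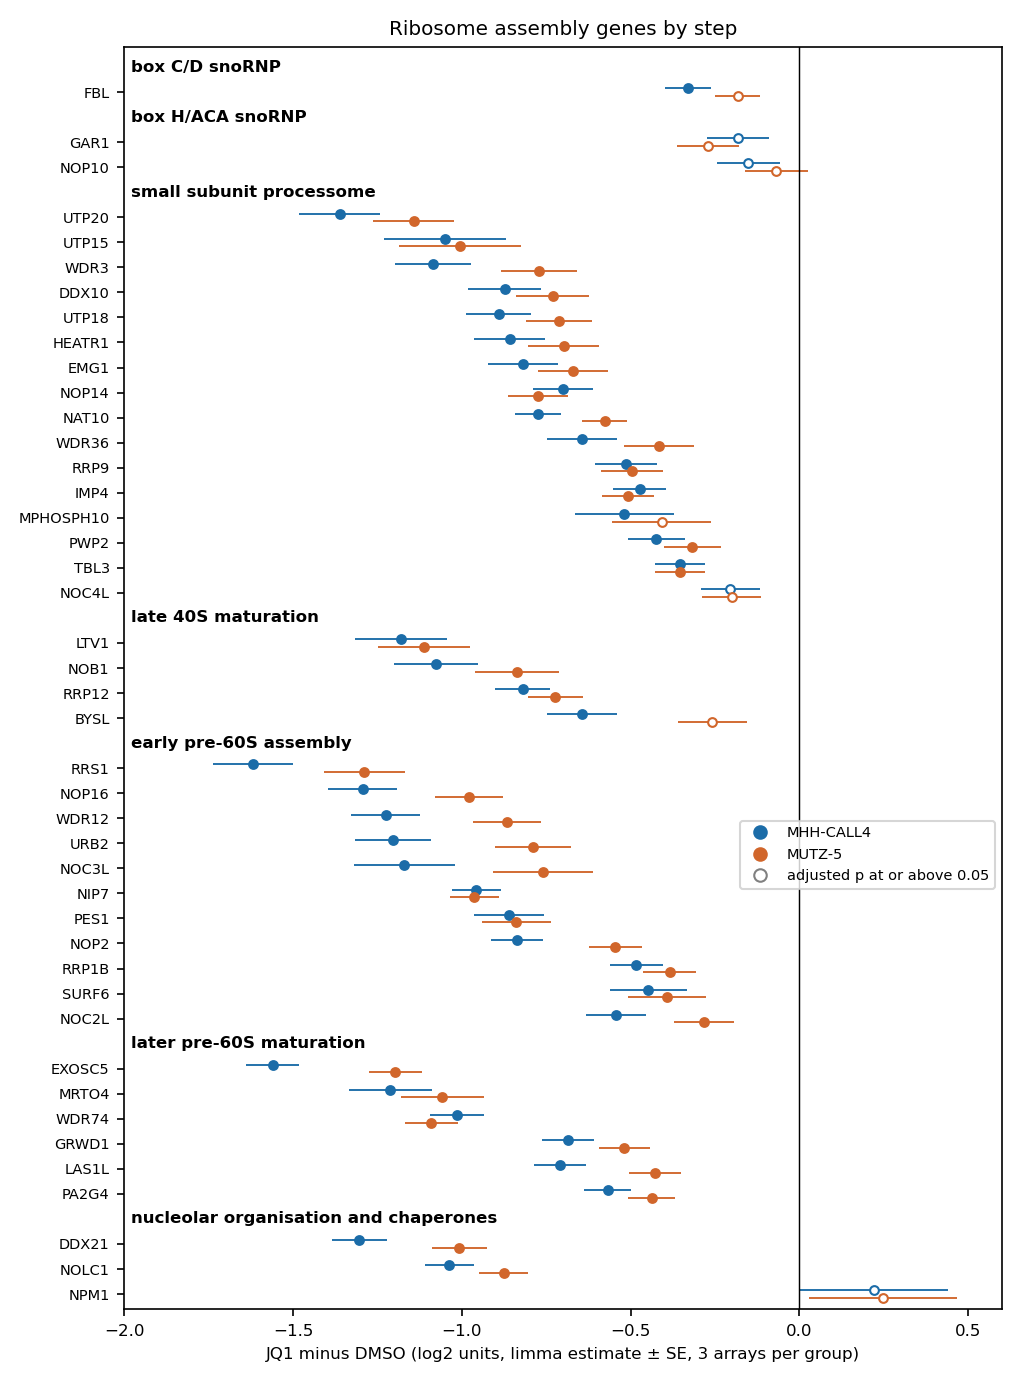
Difference between JQ1 and DMSO in log2 units (x axis, limma estimate ± SE, 3 arrays per group) for each of the 43 ribosome assembly factors, grouped by assembly step (y axis), with MHH-CALL4 in blue, MUTZ-5 in orange and open circles where the adjusted p was at or above 0.05. Filled circles lie left of 0, RRS1 reaches -1.62 in MHH-CALL4, and NPM1 is the one gene to the right of 0.

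The median level of the 43 factors was 10.02, 10.07 and 9.92 in the MHH-CALL4 arrays with DMSO and 9.32, 9.34 and 9.18 in those with JQ1. In MUTZ-5 it was 10.03, 9.88 and 10.20 with DMSO and 9.44, 9.30 and 9.29 with JQ1. All JQ1 arrays of a line lay below all DMSO arrays of that line, and MUTZ-5 DMSO replicate 3 was the highest of the 12. Gene by gene, all 3 JQ1 values lay below all 3 DMSO values for 39 factors in MHH-CALL4 (24.1% of all genes) and for 40 in MUTZ-5 (18.7% of all genes). Without MUTZ-5 DMSO replicate 3, 35 factors fell in MUTZ-5 (10.6% of all genes) and the median over all 43 was -0.57.

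Promoter sequence was available for 37 of the 43 factors in a RefSeq table (GRCh38.p14) that gives 250 bases before and 50 bases after each annotated transcription start, as 42 windows of 300 bases. Both strands were searched for the E-box CACGTG, the sequence bound by MYC with its partner MAX. It was found in 45.2% of the factors' windows, in 25.3% of the 83 windows of other ribosome assembly genes and in 8.32% of the 16425 windows of all genes tested. To show E-boxes that lie before the start, 3 windows of the 120 bases before it are printed here. They run 5′ to 3′ on the gene's strand, with the E-box in capitals. EXOSC5 and UTP20, which have an E-box before the start, were among the factors with the largest falls, and NOP10, which has one as well, was not called in either line. The windows lie at chr19:41397360-41397479 (minus strand) for EXOSC5, chr12:101279985-101280104 (plus strand) for UTP20 and chr15:34343137-34343256 (minus strand) for NOP10.
EXOSC5: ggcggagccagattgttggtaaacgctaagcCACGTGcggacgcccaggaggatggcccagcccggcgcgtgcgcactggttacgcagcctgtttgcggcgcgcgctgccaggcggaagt
UTP20: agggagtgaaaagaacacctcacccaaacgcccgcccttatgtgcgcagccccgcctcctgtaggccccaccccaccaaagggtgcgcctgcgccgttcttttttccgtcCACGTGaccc
NOP10: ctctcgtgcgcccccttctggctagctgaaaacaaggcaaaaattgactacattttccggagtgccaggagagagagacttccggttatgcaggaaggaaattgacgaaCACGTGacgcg
The first base of the printed E-box lay 89 bases before the start in EXOSC5, 10 bases before it in UTP20 and 11 bases before it in NOP10. Matches also began at base 15 counted from an annotated start of EXOSC5 and 170 bases before one of NOP10. A gene can have several windows, and whether these are the same bases was not checked.

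Over all factors, 23 E-box matches fell in the windows of 19 genes, of which 9 matches lay wholly before the start and 14 reached it or lay after it. In 18 of the 19 genes a match lay within 100 bases of the start. The 19 factors with an E-box had a median difference of -0.77 in MHH-CALL4 and -0.58 in MUTZ-5, with 17 and 15 of them called lower. The 18 factors without one had medians of -0.84 and -0.68, with 16 called lower in each line. Factors with the motif thus did not have the larger median fall in either line. The letters are a match to a motif, not a measured binding site.

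**Figure D2:**
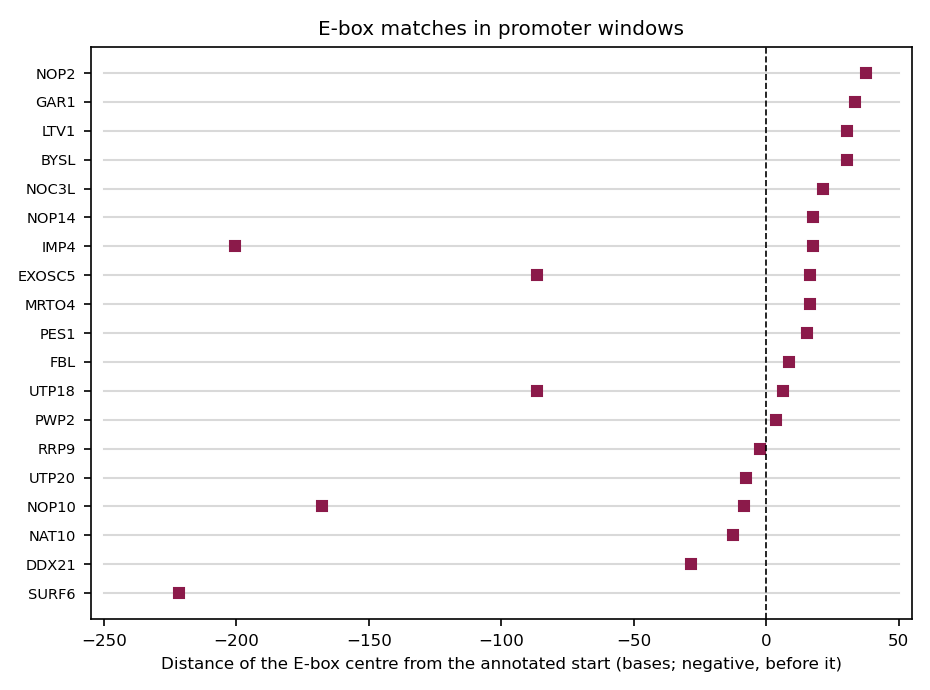
Distance in bases of each CACGTG match from the annotated transcription start (x axis, 0 at the start, negative before it) for the 19 factors with a match in the RefSeq windows (y axis). Most of the 23 squares lie close to the dashed line at 0, and 14 reach or pass it.

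Other motifs were searched the same way. The ETS factor core CCGGAAG was found in 45.2% of the factors' windows, 33.7% of those of other assembly genes and 12.7% of all windows. The CCAAT box (CCAAT) was found in 45.2%, 41.0% and 34.7%. The E-box variant CACGCG was found in 26.2% of the factors' windows, 31.3% of those of other assembly genes and 14.7% of all windows. CACGCG differs from CACGTG at 1 base, and matches to both can overlap only in part. Factors with the ETS core had medians of -0.71 and -0.52, and those without it -0.85 and -0.72.

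The box C/D and box H/ACA particles had the medians closest to 0 of the 7 steps, but these rest on FBL alone and on GAR1 and NOP10. Of other genes of these particles, read on clusters shared with neighbours, DKC1 and NOP58 were called lower in both lines and NOP56 in neither. FBL encodes fibrillarin, the methyltransferase of box C/D particles. Its values in MHH-CALL4 were 12.54, 12.63 and 12.62 with DMSO and 12.31, 12.21 and 12.29 with JQ1, a fall of 1.26-fold (SE 0.068 log2, n = 3, limma adjusted p = 0.0025). In MUTZ-5 they were 12.58, 12.56 and 12.67 against 12.40, 12.38 and 12.48, a difference of -0.18 that was not called (adjusted p = 0.073). JQ1 and DMSO values of FBL did not overlap in either line.

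Neither box H/ACA gene was called in a single line. GAR1, a core protein of the pseudouridylation particle, read 8.54, 8.69 and 8.62 with DMSO and 8.58, 8.41 and 8.30 with JQ1 in MHH-CALL4, a difference of -0.18 (SE 0.092, limma adjusted p = 0.16). In MUTZ-5 it read 8.83, 8.60 and 8.88 against 8.48, 8.51 and 8.51, a difference of -0.27 (adjusted p = 0.0504). The MHH-CALL4 groups overlapped and the MUTZ-5 groups did not. In the mean effect of both lines GAR1 was called lower (-0.23, limma adjusted p = 0.014). In the extended form of the same cluster it was called in each line, at -0.33 (adjusted p = 0.047) and -0.40 (adjusted p = 0.026). NOP10, a small scaffold protein of the same particle, read 10.00, 10.12 and 9.92 with DMSO and 9.84, 9.76 and 9.98 with JQ1 in MHH-CALL4 (difference -0.15, adjusted p = 0.26). Its MUTZ-5 values were 9.97, 9.88 and 10.20 against 9.93, 9.91 and 10.00 (difference -0.07, adjusted p = 0.73). The NOP10 groups overlapped in both lines (its promoter window is the last of those printed above).

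In the small subunit processome 15 of 16 genes fell in MHH-CALL4 and 14 in MUTZ-5, with medians of -0.74 and -0.62. UTP20, a very large scaffold protein of this complex, had the largest fall of the step. It read 9.44, 9.74 and 9.48 with DMSO and 8.19, 8.21 and 8.16 with JQ1 in MHH-CALL4, a fall of 2.57-fold (SE 0.12 log2, n = 3, limma adjusted p = 2.4e-06). The MUTZ-5 values were 9.49, 9.43 and 9.81 against 8.62, 8.45 and 8.23, a fall of 2.21-fold (adjusted p = 1.7e-05). Every JQ1 value lay well below every DMSO value, and among 14232 genes ordered from the largest decrease UTP20 ranked 85 in MHH-CALL4 and 107 in MUTZ-5.

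UTP15, a subunit of the UTP-A subcomplex that binds the nascent precursor first, read 9.89, 9.88 and 9.72 with DMSO and 9.04, 8.94 and 8.36 with JQ1 in MHH-CALL4, a fall of 2.07-fold (limma adjusted p = 0.00066). MUTZ-5 arrays gave 9.60, 9.55 and 9.98 against 8.95, 8.76 and 8.39, a fall of 2.01-fold (adjusted p = 0.0011). JQ1 replicate 3 was the lowest in both lines, and the groups did not overlap. NOC4L, a partner of NOP14 in the processome, was the gene of this step with the smallest difference. It read 9.48, 9.68 and 9.56 against 9.27, 9.34 and 9.50 in MHH-CALL4 (difference -0.20, adjusted p = 0.10). Its MUTZ-5 values were 9.65, 9.41 and 9.50 against 9.39, 9.28 and 9.29 (difference -0.20, adjusted p = 0.13). The groups of NOC4L overlapped in MHH-CALL4 and lay close together in MUTZ-5.

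Among the other processome genes, the UTP-B subunits were lower to unequal degrees. WDR3 fell by 1.09 log2 units in MHH-CALL4 and 0.77 in MUTZ-5, and UTP18 fell by 0.89 and 0.71. WDR36 fell by 0.65 and 0.42, PWP2 by 0.42 and 0.32, and TBL3 by 0.35 in each line. The call of PWP2 in MUTZ-5 was lost without DMSO replicate 1 (limma adjusted p = 0.068) or JQ1 replicate 2 (adjusted p = 0.051). HEATR1, a UTP-A subunit that also supports RNA polymerase I transcription, fell by 0.86 and 0.70. The RNA helicase DDX10 fell by 0.87 and 0.73.

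Enzymes that modify 18S ribosomal RNA in this step also fell. EMG1, a methyltransferase, fell by 0.82 log2 units in MHH-CALL4 and 0.67 in MUTZ-5, and NOP14, its binding partner, by 0.70 and 0.77. NAT10, which acetylates cytidines, fell by 0.77 and 0.58. Of the proteins that bind the U3 small nucleolar RNA or join its complex, RRP9 fell by 0.52 and 0.50 and IMP4 by 0.47 and 0.51. MPHOSPH10, a partner of IMP4, fell by 0.52 in MHH-CALL4 (limma adjusted p = 0.017), a call lost without DMSO replicate 1 (adjusted p = 0.062) or JQ1 replicate 3 (adjusted p = 0.069). Its difference of -0.41 in MUTZ-5 was not called (adjusted p = 0.064).

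Late 40S maturation follows, in which the particle leaves the nucleolus and 18S ribosomal RNA is finished in the cytoplasm. All 4 genes of this step fell in MHH-CALL4 and 3 fell in MUTZ-5, with medians of -0.95 and -0.78. LTV1, an assembly factor released from the pre-40S particle by phosphorylation, read 9.93, 9.91 and 9.90 with DMSO and 8.89, 8.78 and 8.52 with JQ1 in MHH-CALL4, a fall of 2.27-fold (SE 0.14 log2, n = 3, limma adjusted p = 2.5e-05). For MUTZ-5 the values were 9.77, 9.73 and 10.05 against 8.96, 8.84 and 8.41, a fall of 2.16-fold (adjusted p = 5.6e-05). The groups of LTV1 did not overlap, and JQ1 replicate 3 was the lowest array in each line.

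NOB1, the endonuclease that cuts the 3′ end of 18S ribosomal RNA, read 9.09, 9.29 and 9.33 against 8.28, 8.18 and 8.02 in MHH-CALL4, a fall of 2.11-fold (limma adjusted p = 2.6e-05). Values in MUTZ-5 were 9.14, 9.10 and 9.53 against 8.57, 8.45 and 8.24, a fall of 1.79-fold (adjusted p = 0.00027). The highest JQ1 value lay below the lowest DMSO value in both lines. RRP12, which takes part in export of the subunits, fell by 0.82 and 0.72 log2 units. BYSL, which encodes bystin, a factor of pre-40S particles, read 9.08, 8.90 and 8.95 against 8.23, 8.24 and 8.52 in MHH-CALL4, a fall of 1.56-fold (adjusted p = 0.00037). Its MUTZ-5 values were 8.98, 8.87 and 8.86 against 8.45, 8.74 and 8.76, a difference of -0.26 (adjusted p = 0.098). The BYSL groups did not overlap, but in MUTZ-5 the JQ1 values of replicates 2 and 3 lay close to the DMSO values. Without MUTZ-5 JQ1 replicate 1 the difference in MUTZ-5 was -0.16 (adjusted p = 0.37).

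In early pre-60S assembly, which starts on the part of the precursor that becomes large subunit ribosomal RNA, all 11 genes fell in both lines. Their medians were -0.96 and -0.79. RRS1, which helps bring the 5S ribonucleoprotein into the particle, read 10.02, 9.98 and 9.90 with DMSO and 8.51, 8.38 and 8.14 with JQ1 in MHH-CALL4, a fall of 3.07-fold (SE 0.12 log2, n = 3, limma adjusted p = 4.8e-07). In MUTZ-5 it read 9.75, 9.54 and 10.03 against 8.47, 8.43 and 8.55, a fall of 2.44-fold (adjusted p = 5.3e-06). This was the largest fall among the 43 factors in each line, and RRS1 ranked 50 and 76 of 14232 genes.

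NOP16, a nucleolar protein of early pre-60S particles, read 9.59, 9.46 and 9.55 against 8.32, 8.24 and 8.16 in MHH-CALL4, a fall of 2.45-fold (limma adjusted p = 8.6e-07). The MUTZ-5 values were 9.28, 9.31 and 9.68 against 8.48, 8.51 and 8.34, a fall of 1.97-fold (adjusted p = 1.5e-05). The NOP16 groups were far apart in both lines. NOC2L, a subunit of the NOC complexes, had the smallest mean effect of both lines in the step, though SURF6 and RRP1B fell less in MHH-CALL4. It read 10.88, 10.95 and 10.89 against 10.41, 10.25 and 10.44 in MHH-CALL4, a fall of 1.46-fold (adjusted p = 0.00047). MUTZ-5 arrays gave 10.89, 10.64 and 10.87 against 10.47, 10.45 and 10.65, a fall of 1.22-fold (adjusted p = 0.037). The MUTZ-5 groups of NOC2L overlapped. Its call in MUTZ-5 was lost in 10 alternative settings. Among these were median centring (adjusted p = 0.054), the extended form (adjusted p = 0.066) and the MUTZ-5 arrays alone (adjusted p = 0.090). It was also lost without MUTZ-5 replicate 1 or 3 with DMSO or replicate 1 or 2 with JQ1 (adjusted p from 0.094 to 0.15), and without MHH-CALL4 DMSO replicate 1 or 3 (adjusted p = 0.0501 and 0.054).

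Of the PeBoW complex, which is needed for processing of the large subunit precursor, WDR12 fell by 1.23 log2 units in MHH-CALL4 and 0.87 in MUTZ-5 and PES1 by 0.86 and 0.84. NOC3L, the partner of NOC2L, fell by 1.17 and 0.76, and URB2, another early pre-60S factor, by 1.20 and 0.79. NIP7 fell by 0.96 in each line and NOP2, a methyltransferase of 28S ribosomal RNA, by 0.84 and 0.55. SURF6 fell by 0.45 and 0.39 and RRP1B by 0.48 and 0.38. The call of SURF6 was lost in MHH-CALL4 without DMSO replicate 2 (limma adjusted p = 0.057) and in MUTZ-5 without DMSO replicate 1, JQ1 replicate 2 or JQ1 replicate 3 (adjusted p from 0.094 to 0.10). The genes of this step thus ranged from -0.45 to -1.62 in MHH-CALL4.

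All 6 genes of later pre-60S maturation fell in both lines, with medians of -0.86 and -0.79. EXOSC5, a core subunit of the RNA exosome that trims ribosomal RNA precursors, read 10.96, 11.04 and 11.04 with DMSO and 9.43, 9.49 and 9.43 with JQ1 in MHH-CALL4, a fall of 2.95-fold (SE 0.078 log2, n = 3, limma adjusted p = 1.7e-08). For MUTZ-5 the values were 10.83, 10.82 and 11.03 against 9.61, 9.80 and 9.68, a fall of 2.29-fold (adjusted p = 2.5e-07). The distance between the groups was more than 1 log2 unit in each line, and EXOSC5 ranked 55 and 97 of 14232 genes. Its promoter window is the first of those printed above.

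MRTO4, a relative of the stalk protein P0 that holds its place on the maturing particle, read 10.11, 9.86 and 9.90 against 8.84, 8.73 and 8.66 in MHH-CALL4, a fall of 2.32-fold (limma adjusted p = 8.2e-06). Values in MUTZ-5 were 9.94, 9.68 and 10.21 against 9.05, 8.80 and 8.81, a fall of 2.08-fold (adjusted p = 3.8e-05). The MRTO4 groups did not overlap, although the MUTZ-5 DMSO arrays spread widely. PA2G4, an ErbB3-binding protein that also sits on pre-60S particles, read 14.29, 14.25 and 14.26 against 13.64, 13.68 and 13.77 in MHH-CALL4, a fall of 1.48-fold (adjusted p = 4.6e-05). In MUTZ-5 it read 14.20, 14.15 and 14.15 against 13.66, 13.70 and 13.84, a fall of 1.35-fold (adjusted p = 0.00051). PA2G4 had the smallest mean effect of both lines in the step in the core form, and LAS1L fell slightly less in MUTZ-5. The PA2G4 groups stood clearly apart, but its level rests on the probes used, since the mean over the 12 arrays was 13.97 in the core form and 8.72 for the same cluster in the extended form.

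WDR74, a nuclear partner of the assembly ATPase NVL, fell by 1.01 log2 units in MHH-CALL4 and 1.09 in MUTZ-5. GRWD1, a chaperone of a ribosomal protein, fell by 0.69 and 0.52. LAS1L, the endonuclease that cuts the internal spacer next to 28S ribosomal RNA, fell by 0.71 and 0.43. All 6 genes of the step had groups that did not overlap in either line. All JQ1 values lay below all DMSO values for 24.1% of all genes in MHH-CALL4 and 18.7% in MUTZ-5.

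Of the 3 organisers and chaperones, 2 fell in both lines. DDX21, an RNA helicase that links RNA polymerase I transcription to processing, read 10.98, 11.16 and 10.99 with DMSO and 9.76, 9.76 and 9.70 with JQ1 in MHH-CALL4, a fall of 2.47-fold (SE 0.082 log2, n = 3, limma adjusted p = 1.2e-07). The MUTZ-5 values were 10.83, 10.75 and 10.98 against 9.95, 9.79 and 9.80, a fall of 2.01-fold (adjusted p = 1.7e-06). Every JQ1 value of DDX21 lay below 10 and every DMSO value above it. NOLC1, a chaperone of small nucleolar ribonucleoproteins, read 11.21, 11.37 and 11.29 against 10.29, 10.25 and 10.22 in MHH-CALL4, a fall of 2.05-fold (adjusted p = 3.3e-07). MUTZ-5 arrays gave 11.40, 11.40 and 11.48 against 10.62, 10.57 and 10.45, a fall of 1.84-fold (adjusted p = 1.9e-06). The NOLC1 groups stood apart in both lines.

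NPM1, which encodes nucleophosmin, the abundant chaperone of the granular nucleolus, was the one factor with positive differences. Its core cluster read 4.74, 4.46 and 4.73 with DMSO and 4.90, 4.68 and 5.01 with JQ1 in MHH-CALL4 (difference 0.22, SE 0.22, limma adjusted p = 0.50). For MUTZ-5 the values were 4.62, 4.43 and 5.27 against 4.79, 5.53 and 4.75 (difference 0.25, adjusted p = 0.54). The groups overlapped in both lines, and the highest MUTZ-5 values came from DMSO replicate 3 and JQ1 replicate 2. The same cluster summarised over the extended probe set list read 9.30, 9.26 and 9.24 with DMSO and 8.78, 8.75 and 8.53 with JQ1 in MHH-CALL4, a fall of 0.58 log2 units (adjusted p = 0.0025). Values in MUTZ-5 were 9.10, 8.98 and 9.37 against 8.72, 8.63 and 8.39, a fall of 0.57 (adjusted p = 0.0034). The 2 forms of NPM1 come from the same scans, so its direction depends on which probes were summarised.

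**Figure D3:**
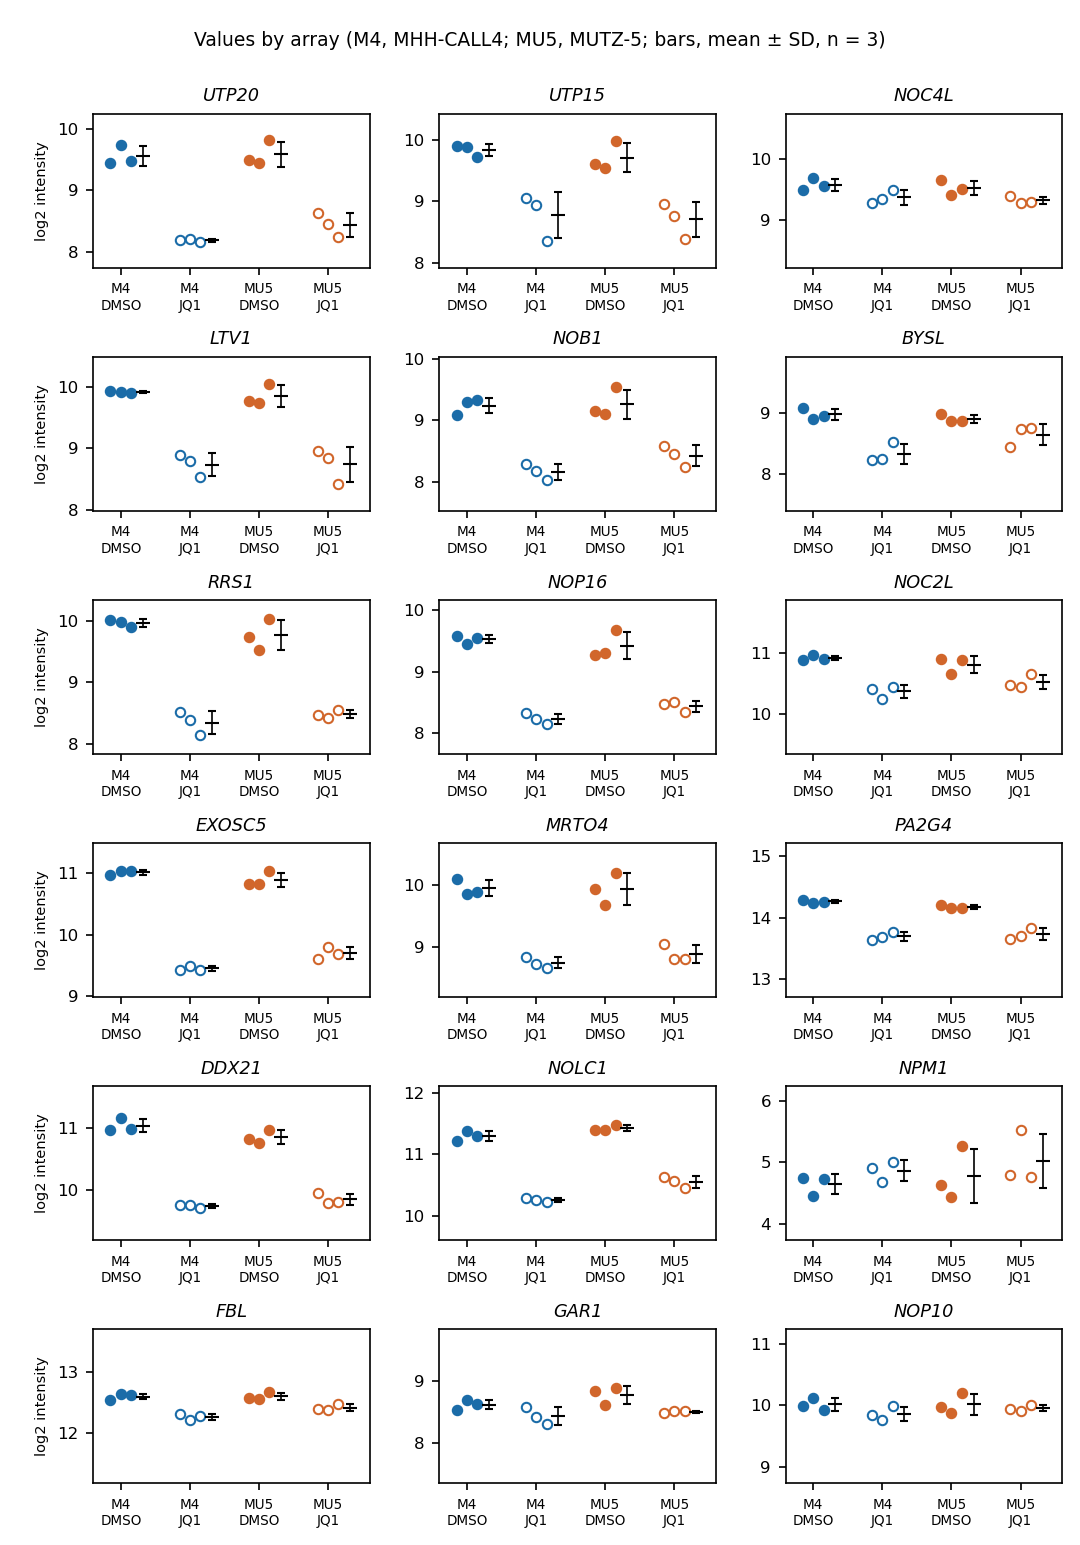
Log2 intensity (y axis, with a range of the same width in each panel) of 18 ribosome assembly factors in each of the 12 arrays, by line and treatment (x axis), with filled circles for DMSO, open circles for JQ1 and the mean ± SD of 3 arrays beside them. JQ1 values lie below DMSO values without overlap in genes such as RRS1, EXOSC5 and DDX21, and overlap with them in NOP10 and NPM1.

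The extended form was also read for all 43 factors on the same clusters. There 42 of 43 lay below 0 in both forms and both lines, and the medians were -0.73 in MHH-CALL4 and -0.59 in MUTZ-5. For PA2G4 the difference was -0.73 and -0.84 in this form, against -0.57 and -0.44 in the core form. Taking for each gene the extended cluster with the highest mean gave another cluster for PA2G4. Its difference there was -0.13 in MHH-CALL4, which was not called (limma adjusted p = 0.41), and -0.46 in MUTZ-5, which was called (adjusted p = 0.0078). This choice gave another cluster for HEATR1 as well, called lower in both lines (-0.82 and -0.61). For NOB1 it gave another cluster with differences of 0.028 and 0.043 that were not called (adjusted p = 0.86 and 0.85).

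Of the 11 factors without a core cluster of their own, 6 lay on clusters that the annotation shares among several genes, so their values may include a neighbour. On these clusters DKC1, the pseudouridine synthase of box H/ACA particles, fell by 1.04 log2 units in MHH-CALL4 and 0.80 in MUTZ-5. NOP58, a core protein of box C/D particles, fell by 0.76 and 0.56, and TSR1, a late 40S factor, by 0.91 and 0.75. MYBBP1A fell by 1.16 and 0.95 and NCL, which encodes nucleolin, by 0.37 and 0.39. NOP56, the partner of NOP58, lay on a cluster shared by 7 genes and was not called, with differences of -0.16 (limma adjusted p = 0.10) and -0.20 (adjusted p = 0.054). With these 6 added, 44 of 49 factors fell in MHH-CALL4 and 41 in MUTZ-5. NHP2, WDR43, BOP1, DDX18 and GNL3 were not analysed here.

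The lines were compared by the difference between their JQ1 effects. No factor was called (limma, adjusted p under 0.05), where 1.53% of all genes were. At an unadjusted p under 0.05 there were 8 factors, all with the smaller fall in MUTZ-5, where 10.5% of all genes passed that threshold in either direction. They were EXOSC5, BYSL, NOP2, URB2, LAS1L, DDX21, WDR12 and NOP16. Of the 42 factors below 0 in both lines, 36 had the larger decrease in MHH-CALL4. Counting genes whichever way they moved, the effect was the more negative one in MHH-CALL4 for 37 of 43 factors. The same held for 75 of 89 other ribosome assembly genes and for 7744 of all 14232 genes. The largest differences were those of URB2 at 0.42 (95% interval 0.07 to 0.76, adjusted p = 0.34), NOC3L at 0.41 and BYSL at 0.39 (95% interval 0.07 to 0.70, adjusted p = 0.32). Leaving out MUTZ-5 DMSO replicate 3, the array with the highest median of the factors, gave 2 calls, URB2 with a difference of 0.55 (adjusted p = 0.042) and EXOSC5 with 0.43 (adjusted p = 0.044), and 2.53% of all genes. Across the 43 factors the effects in the lines had a Pearson correlation of 0.94, and across all genes of 0.77, and genes measured on the same arrays are not independent.

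**Figure D4:**
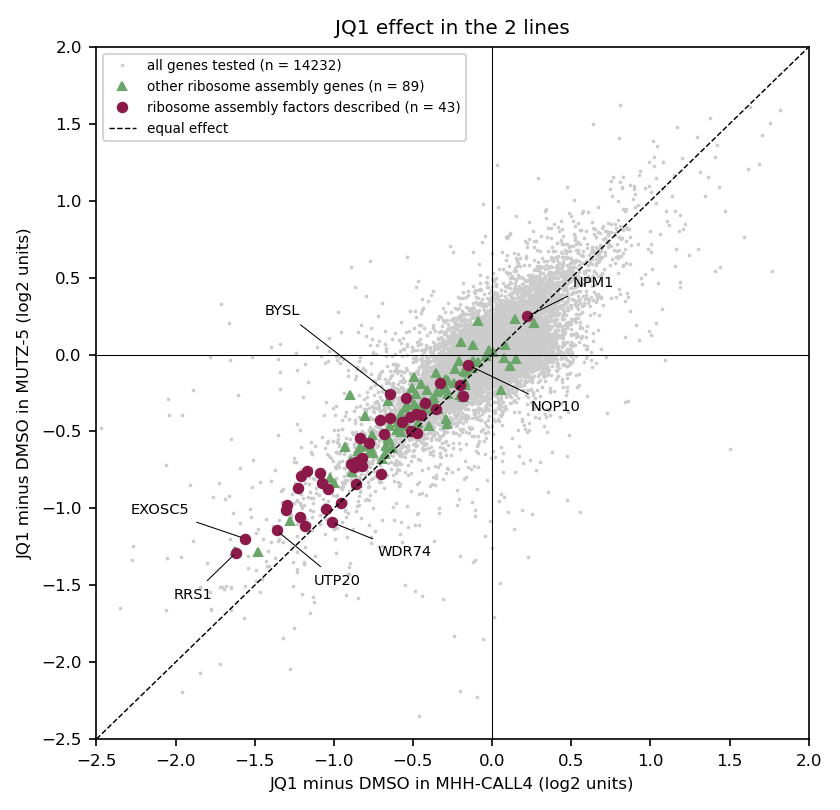
Difference between JQ1 and DMSO in MHH-CALL4 (x axis) and in MUTZ-5 (y axis), both in log2 units, for all 14232 genes (grey; 13 lie outside the axes), 89 other ribosome assembly genes (green) and the 43 factors (red), with a dashed line of equal effect. The factors lie along this line, 42 in the lower left, of which 36 lie above the line, and NPM1 lies to the upper right of 0.

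Under DMSO 7 of 43 factors differed between MUTZ-5 and MHH-CALL4 (limma, adjusted p under 0.05), where 23.4% of all genes did (11.9% higher and 11.5% lower in MUTZ-5). EMG1 (8.87 ± 0.084 in MHH-CALL4 and 9.53 ± 0.21 in MUTZ-5, SD, n = 3), NOP2, NOC3L, DDX10 and IMP4 were higher in MUTZ-5, by 0.66, 0.61, 0.56, 0.34 and 0.29 log2 units. WDR74 (11.32 ± 0.099 and 10.78 ± 0.11) and RRP1B were lower in MUTZ-5, with differences of -0.54 and -0.45. This count depended on the settings. It was 12 without MUTZ-5 DMSO replicate 3 (26.0% of all genes), 11 after median centring (24.6% of all genes) and 5 without any one of the MHH-CALL4 DMSO arrays.

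Other genes of ribosome assembly, from a list of 110 of which 89 had a core value, moved the same way with smaller medians. Both this list and that of the factors were chosen with earlier results of these data known. In MHH-CALL4 63 of 89 fell and in MUTZ-5 47, with medians of -0.43 and -0.32, and 44 fell in both lines. Of all genes, 17.5% were called lower in MHH-CALL4, 13.0% in MUTZ-5 and 10.6% in both. None of the 89 was called higher (limma), where 11.0% and 9.06% of all genes were. At an unadjusted p under 0.05, 0 of the 89 were higher in MHH-CALL4 and 1 in MUTZ-5. With cyclic loess scaling 2 were called higher in MHH-CALL4 and 1 in MUTZ-5, where 1972 and 1659 of all 14232 genes were. Of 35 other small subunit factors, 22 and 19 fell, with the largest falls in UTP25 (1.48 and 1.28 log2 units) and NOL6 (1.03 and 0.81). Of 30 other large subunit factors, 24 and 17 fell. Among these, the helicase DHX33 fell by 1.62 and 1.28, and RPF2, the partner of RRS1, by 1.28 and 1.08.

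Of 13 other genes of the exosome and of precursor trimming, 9 and 5 fell, beside 17.5% and 13.0% of all genes. EXOSC7 fell by 0.78 and 0.64 and EXOSC2 by 0.66 and 0.30, beside 1.56 and 1.20 for EXOSC5. Of 11 other proteins and assembly factors of small nucleolar ribonucleoproteins, 8 and 6 fell, among them NUFIP1 (0.86 and 0.83) and ZNHIT6 (0.88 and 0.76). RIOK3, an atypical kinase bound to pre-40S particles, was the one gene of these lists that was called higher in the mean effect of both lines (0.19, limma adjusted p = 0.018).

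The step before and the product were read beside these lists. Of 10 subunits and factors of RNA polymerase I, 7 fell in MHH-CALL4 and 6 in MUTZ-5, with medians of -0.55 and -0.35. Of all genes, 17.5% and 13.0% were called lower. Most of the listed cytosolic ribosomal protein genes had no core cluster of their own and were not read, which left 26. Of these 26, 6 fell and 3 rose in MHH-CALL4, or 23.1% and 11.5% beside 17.5% and 11.0% of all genes. In MUTZ-5 4 fell and 0 rose, or 15.4% lower beside 13.0% of all genes. Their medians were -0.06 and -0.05, and the former turned to 0.0016 with cyclic loess scaling. After median centring 2 of the 26 rose in MUTZ-5, where 1761 of all 14232 genes were called higher. The medians of the assembly factors stand at -0.82 and -0.70.

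**Figure D5:**
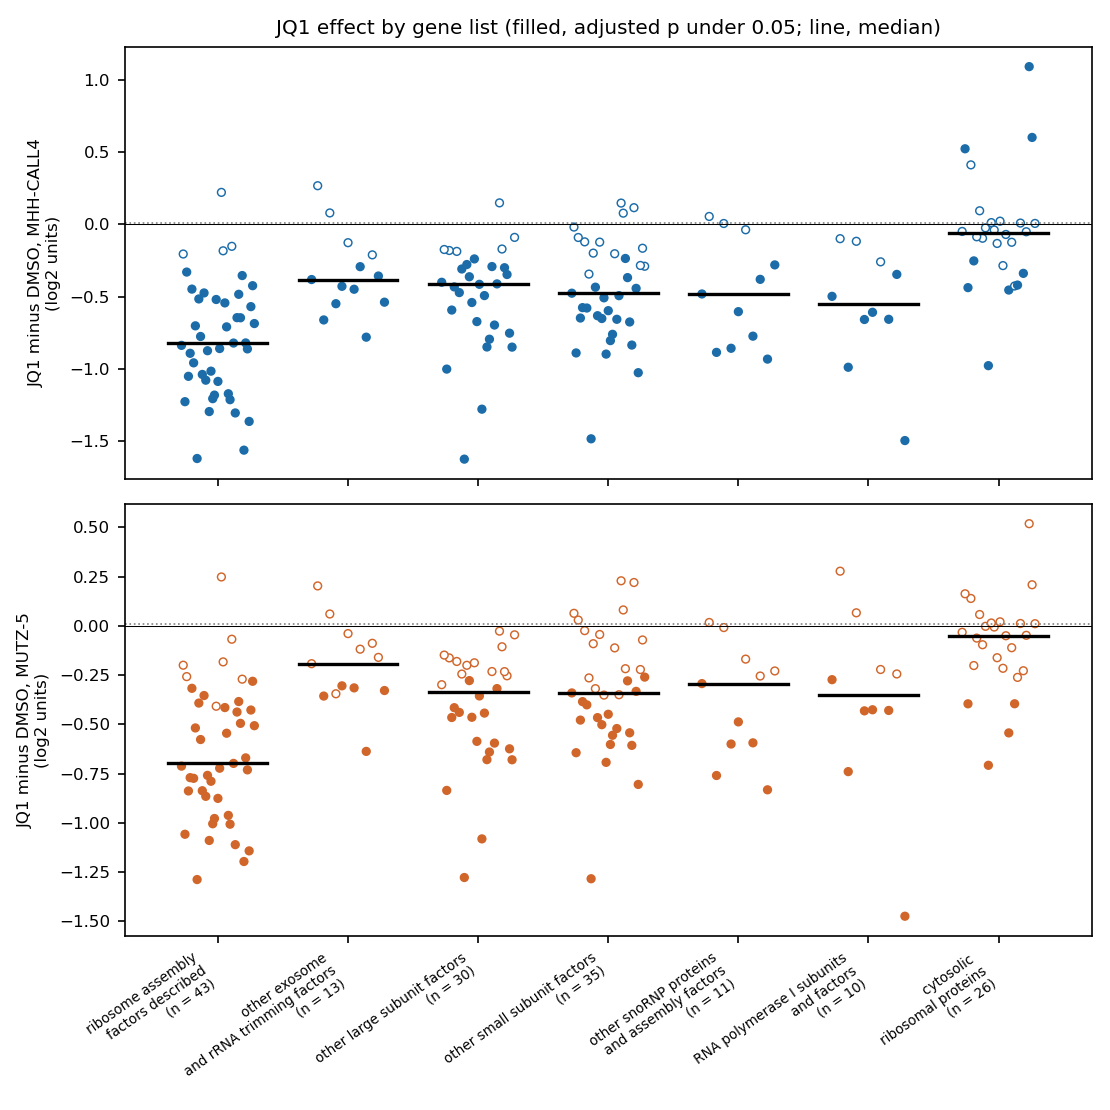
Difference between JQ1 and DMSO in log2 units (y axis) for each gene of the 43 ribosome assembly factors, of 4 lists of other assembly genes, of RNA polymerase I and of cytosolic ribosomal proteins (x axis), with MHH-CALL4 above and MUTZ-5 below. Filled circles passed an adjusted p of 0.05, black bars are medians (-0.82 and -0.70 for the factors, -0.06 and -0.05 for ribosomal proteins as deposited) and the dotted line is the median of all genes.

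MYC, a factor that binds the E-box, was read on the same arrays. Its values were 12.56, 12.48 and 12.50 with DMSO and 10.51, 10.50 and 10.37 with JQ1 in MHH-CALL4, and 12.65, 12.59 and 12.70 against 11.35, 11.29 and 11.34 in MUTZ-5. MYC fell by 2.05 and 1.32 log2 units (limma adjusted p = 8.6e-10 and 5.3e-08), and its fall was the smaller one in MUTZ-5 (difference 0.73, adjusted p = 0.0011). Its part in the falls of the assembly factors was not tested.

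The median of all genes lay between 8.46 and 8.57 in every array, and precision is limited by having 3 arrays in a group. Of 10 precursor B cell markers 9 lay above the gene median in each group, and their mean lay within 12.05 to 12.14 and 11.61 to 11.75 with DMSO and within 11.78 to 11.84 and 11.32 to 11.38 with JQ1 in MHH-CALL4 and MUTZ-5. Of T and NK cell markers 1 of 12 lay above the gene median, of erythroid and stromal markers 1 of 6 each, and of myeloid markers 0 of 8 in MHH-CALL4 and 1 of 8 in MUTZ-5. The mean of the precursor B cell markers was thus lower with JQ1 in both lines, and its part in the results was not tested. These markers did not move alike. VPREB1 had differences of -1.03 in MHH-CALL4 and -1.09 in MUTZ-5, and PAX5, DNTT and MME were not called in either line. RAG1 was called higher in MUTZ-5 (0.26, limma adjusted p = 0.024).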

How the data were processed

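The deposited values are log2 intensities that the authors made with RMA in Affymetrix Expression Console, per the submitters' processing notes; the version and genome build are not given in the sources used here. RMA gives all arrays 1 distribution of probe intensities, so differences are relative to other genes. The gene values do not share 1 distribution exactly, and their array medians lay between 8.46 and 8.57. Each array was deposited as a core and an extended summary, which count as 1 replicate. The files hold no detection calls, so signal over background is unknown. The core form was used, with clusters of 1 symbol (14232 genes), no filter and no further normalization. With limma 3.58.1 (R 4.3.3) the 4 group means were estimated in 1 fit of the 12 core arrays. The JQ1 effect was read per line, as the difference between lines and as their mean, and the lines were compared under DMSO. Two-sided p-values were adjusted by Benjamini-Hochberg over the 14232 genes, with calls at 0.05. The procedure was tested on simulated data.

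The members, the gene lists and the naming rule were chosen with earlier results of these data known. Every member may be named. Values by array are given for the 2 members of each step with the largest mean effect and the 1 with the smallest, for members called higher in a line, and for up to 4 with the largest called difference between the lines each way. Of each other assembly list the 2 largest called changes each way in the mean effect are named. Promoters printed come from members named by step with an E-box in the 120 bases before the start. DDX21 met this rule as well and was not printed. Others named for the difference between lines were chosen after their values were seen. Replicate numbers were checked for pairing. Deviations of same-numbered samples correlated at 0.30, 0.07 and 0.23 in MHH-CALL4 and at -0.17, -0.21 and -0.44 in MUTZ-5. Those of differently numbered samples ran from -0.30 to 0.10 in MHH-CALL4 and from -0.32 to 0.39 in MUTZ-5. Whether the numbers pair the samples is thus open, and samples were not treated as pairs. Alternatives were the extended form, median centring, cyclic loess, a filter on low values, the mean of a gene's clusters, the arrays of 1 line alone, trend and robust variance, a replicate block, each array left out in turn and, added after seeing the data, clusters of several symbols.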

Additional observations from a re-analysis of the deposited data

How the results depend on the processing

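Over the single factors, 1765 alternative values kept direction and call, 14 gained a call, 19 lost one and 6 turned direction. In many settings, such as leaving out an array of the other line, a factor's estimate could not change. Only its call could change there, so the count of kept directions is no measure of stability. The extended form moved the medians to -0.71 in MHH-CALL4 and -0.56 in MUTZ-5. Leaving out single arrays gave medians from -0.76 to -0.57 in MUTZ-5, 0 to 2 called differences between the lines, and 5 to 12 called differences under DMSO. This last count was 11 after centring each array on its median and 3 with a replicate block (11.9% of all genes under DMSO). With that block 39 and 35 factors and 59 and 42 other assembly genes were called lower under JQ1. The share of all genes called lower under JQ1 with that block is not given here, so these counts cannot be set against it. The block changed no other count by over 1.5 times. Whether the replicate numbers pair the samples is open, since deviations of same-numbered samples correlated positively in MHH-CALL4 and negatively in MUTZ-5. In the extended form NOB1 was read from another cluster at 0.028 and 0.043, and NPM1 turned to -0.58 and -0.57. With single arrays left out, NPM1 in MUTZ-5 ranged from -0.0046 (without JQ1 replicate 2) to 0.49, and NOP10 from -0.14 to 0.025 (without DMSO replicate 3). The cause was not tested. Without MUTZ-5 DMSO replicate 3, 35 factors were lower in MUTZ-5. Signal over background is unknown, which limits weak clusters such as that of NPM1.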
